A study of Mus musculus with 2 samples.

Results

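The S100 and annexin genes described here are 10 members of 2 families of calcium-binding proteins, taken by symbol from the 19070 genes of the table: S100a4, S100a6, S100a8, S100a9, S100a10, S100a11, Anxa1, Anxa2, Anxa3 and Anxa5. All 10 were found in both sections. Spatial expression was measured on 1 coronal brain section from a male C57Bl6 mouse 3 days after controlled cortical impact (CCI) and 1 from another such mouse 28 days after it. CCI models traumatic brain injury by driving an impactor into the cortex. The mice were 3 months old per the labels, which the study's supplement gives for its CCI mice as the age at impact. By the study's methods the impact was made through a removed bone flap, under ketamine and medetomidine anaesthesia with buprenorphine and bupivacaine as pain relief, and the labels name no further treatment. No uninjured section was analysed, so the opposite side of the same section served as the reference. Because each time was 1 section of 1 animal, no difference below was tested. The 95% intervals cover counting error only, and a difference between the times cannot be told apart from a difference between the animals or between the tissue captured.

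S100 proteins are small dimers that bind calcium and then grip a partner protein. Annexins bind phospholipid membranes when calcium rises. The families meet in fixed pairs: S100A10 holds ANXA2 in a complex at the plasma membrane, S100A11 binds ANXA1, and S100A8 with S100A9 forms calprotectin, the main cytosolic protein of neutrophils. In the brain, S100A4 and S100A6 are known from astrocytes, ANXA1 from the meninges and from phagocytes, and ANXA3 from microglia.

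Each section was read on a grid of 16 µm squares (bins), and a value is the number of UMIs (unique molecular identifiers, 1 per captured probe molecule) of a gene. A bin can hold parts of several cells. In bins summed this way, more cells of a type and more RNA per cell cannot be told apart. The 3-day section had 120615873 UMIs in 121967 bins and the 28-day section 82422389 UMIs in 105589 bins. Bins with at least 100 UMIs were kept, and sums are given as CPM, the UMIs of the gene scaled to 1000000 UMIs of the same area. The sections share 84781 bin names, which are grid positions and not cells. The labels do not name the injured side. It was taken as the side with the high levels of phagocyte genes, at columns below 130 at 3 days and below 240 at 28 days. The captured sides were unequal. The injured side was 2.08 mm wide at 3 days against 4.62 mm for the opposite side, and 3.84 mm against 2.86 mm at 28 days. Choroid plexus genes had a median log2 ratio between the sides of 2.28 at 3 days and 0.80 at 28 days, and excitatory neuron genes −1.56 and −0.23. The part of this unequal capture in the ratios between the sides was not tested beyond the alternatives given here.

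In the genome, all 6 S100 members lie on chromosome 3 (GRCm38.p6, the assembly of mm10). S100a4, S100a6, S100a8 and S100a9 share 92.0 kb, from 90603770 to 90695721, and S100a11 and S100a10 lie next to each other between 93520496 and 93564645. Anxa5 is also on chromosome 3, from 36448923 to 36475887. RefSeq promoters were at hand for 8 of the 10 members, without S100a10 and Anxa3. The motif of the AP-1 transcription factors, written TGANTCA and searched on both strands, was found in the promoter of 2 of these 8, S100a11 and Anxa2, and in 7.81% of all 32851 promoters of the same 300 bases. These are the members that were at least 2-fold lower at 28 than at 3 days on the whole injured side. That overlap holds in this setting only: without border bins S100a4, whose promoter had 0 matches, was at −1.22 on the log2 scale. No link of motif and level was tested. The 150 bases before the starts of S100a11 and Anxa2 are shown, on the plus strand, with each match in capitals.
S100a11, chr3:93520346-93520495: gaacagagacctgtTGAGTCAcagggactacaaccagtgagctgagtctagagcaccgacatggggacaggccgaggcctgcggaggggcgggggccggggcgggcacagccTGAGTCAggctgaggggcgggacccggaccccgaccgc
Anxa2, chr9:69453533-69453682: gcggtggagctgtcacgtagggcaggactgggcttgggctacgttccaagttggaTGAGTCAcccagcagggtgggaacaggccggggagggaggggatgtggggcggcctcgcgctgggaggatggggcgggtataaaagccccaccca
The S100a11 window holds 2 matches and the Anxa2 window 1. A match is a run of letters and says nothing of binding in these sections. A C/EBP motif, TTGCNNAA, was matched in S100a9 and Anxa1 and in 10.8% of all promoters. The NF-kB motif and the STAT motif TTCNNNGAA were matched in none of the 8, against 0.411% and 8.30% of all promoters. No 2 of these motifs overlapped in a member.

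All 10 genes were higher on the injured side in both sections. At 3 days 8 of 10 were at least 2-fold higher, where 10.5% of 16164 genes were, and their median log2 ratio was 1.87 against 0.14 for all genes. At 28 days 8 of 10 were at least 2-fold higher, where 6.43% of 15640 genes were, with a median of 1.64 against 0.04. S100a10 and Anxa5 were the 2 below 2-fold at both times. Anxa1 at 3 days was close to the threshold, with an interval that reached below it.

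**Figure D1:**
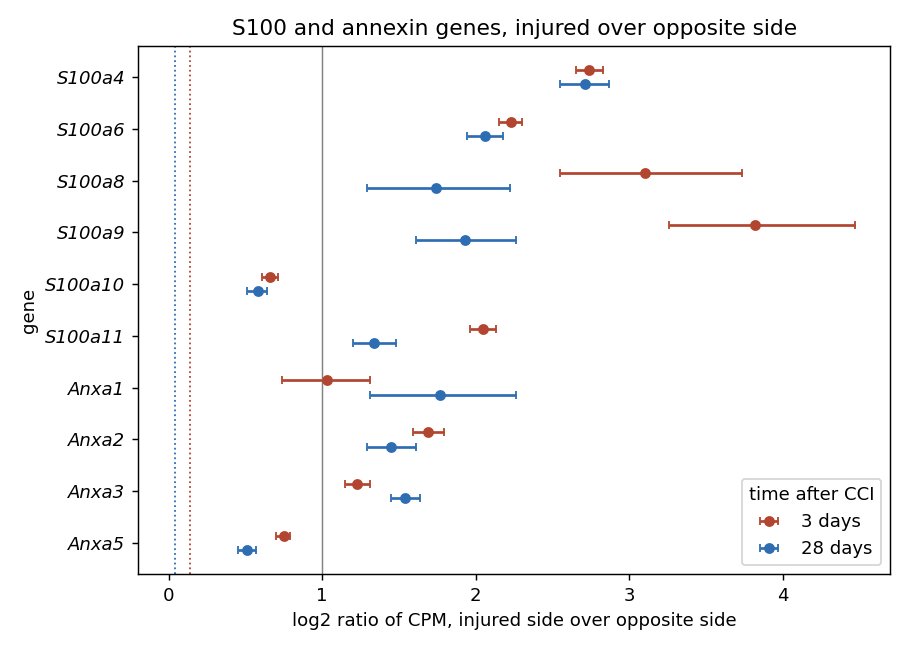
Log2 ratio of CPM, injured over opposite side, for each of the 10 genes (vertical axis) in the 3-day (red) and 28-day (blue) section; bars are 95% counting intervals, dotted lines the medians of all genes, the grey line a 2-fold ratio. S100a9 has the highest ratio at 3 days, 3.82, and S100a4 at 28 days, 2.71, while S100a10 and Anxa5 stay below 1 at both times.

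S100a4, which binds myosin and is often used to mark motile cells, had 103.3 CPM at 3 days on the injured against 15.5 CPM on the opposite side. At 28 days the values were 54.6 and 8.37 CPM. The level was lower at 28 days on both sides. The log2 ratios were 2.74 (2.65 to 2.83) and 2.71 (2.55 to 2.87), and with equal width on either side of the split 2.03 and 2.46. S100a6, or calcyclin, followed it with 118 against 25.2 CPM at 3 days and 69.3 against 16.6 CPM at 28 days, log2 ratios of 2.23 and 2.06, or 1.79 and 1.84 with equal width. S100a11, which helps membranes to reseal, had 85.5 against 20.7 CPM at 3 days and 33.5 against 13.3 CPM at 28 days. Its ratio fell from 2.05 (1.96 to 2.13) to 1.34 (1.20 to 1.48), so these intervals do not overlap. On the opposite side at 3 days S100a11 had 24.1 to 37.4 CPM in the strips within 2 mm of the split. Farther out it had 14.2 CPM at 2 to 3 mm and 14.1 CPM at 3 to 5 mm. The injured side was captured over 2.08 mm only at 3 days, and the part of this unequal width in the fall was not tested. S100a10, which lacks a working calcium site and carries ANXA2 to the membrane, had 164.8 against 104.4 CPM at 3 days and 117.1 against 78.6 CPM at 28 days. Its log2 ratios, 0.66 and 0.58, were the lowest of the S100 members at both times.

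Among the annexins, Anxa2, the membrane partner of S100a10, had 58.2 against 18.0 CPM at 3 days and 27.2 against 9.96 CPM at 28 days. Anxa3 had 76.8 against 32.7 CPM at 3 days and 79.8 against 27.4 CPM at 28 days, and its log2 ratio went from 1.23 (1.15 to 1.31) to 1.54 (1.45 to 1.64). It was the annexin whose injured-side level did not fall between the times. Anxa5, which binds phosphatidylserine exposed on dying cells, had 160.4 against 95.6 CPM and then 134.5 against 94.4 CPM. Anxa1, a mediator of the resolution of inflammation, was sparse, with 203 UMIs against 220 at 3 days (5.40 and 2.65 CPM) and 149 against 53 at 28 days (4.01 and 1.17 CPM).

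S100a8 and S100a9 were rare. At 3 days S100a8 had 126 UMIs on the injured side and 32 on the opposite side, and at 28 days 149 and 54. S100a9 had 182 and 28 UMIs, then 332 and 106. Their log2 ratios at 3 days were 3.10 (2.55 to 3.73) and 3.82 (3.26 to 4.47), the highest of the 10, though the interval of S100a8 overlaps that of S100a4. At 28 days they were 1.74 (1.29 to 2.22) and 1.93 (1.61 to 2.26). The 28-day ratios rested on 1 patch of 511 bins described below: without it they were −0.62 and −1.69. Then 6 of 10 members were at least 2-fold higher, with no share of all genes at hand in that setting. Only the injured side loses a patch there. Without the largest 28-day patch of each side S100a8 had 0.773 against 0.710 CPM and S100a9 0.718 against 1.26 CPM. With equal width on either side of the split, which leaves out the far rim of the 28-day lesion, the log2 ratios of S100a8 and S100a9 were −0.90 and −2.83.

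On the injured side 2 of the 10, S100a11 and Anxa2, were at least 2-fold lower at 28 than at 3 days, where 2.79% of 15587 genes were, with log2 differences of −1.35 and −1.10 and a median over all genes of −0.06. None of the 10 was 2-fold higher, where 2.15% of genes were. S100a4 differed by −0.92, S100a6 by −0.77, S100a10 by −0.49, Anxa1 by −0.43 and Anxa5 by −0.25. Anxa3, at 0.06 (−0.02 to 0.13), and S100a8, at 0.26 (−0.09 to 0.61), had intervals that include 0. S100a9 was at 0.88 (0.62 to 1.15), a value that rests on the patch of 511 bins. Without the largest patch of each section S100a9 had 26 UMIs at 28 days against 139 at 3 days, a log2 difference of −2.34 (−3.03 to −1.75), and S100a8 28 against 108, −1.88 (−2.55 to −1.28). S100a8 and S100a9 themselves chose these patches, which held 66.6% of their UMIs in the 28-day section and 16.6% at 3 days. Their 2 differences depend on that choice. S100a4 was then at −1.19, and 5 of 10 members, S100a8 and S100a9 among them, were at least 2-fold lower at 28 days. Without border bins, within 64 µm of a tissue edge, 3 of 10 were, with S100a4 at −1.22, and S100a9 was at 1.06 with its patch included. The share of all genes is not at hand for either setting. On the opposite side 1 of 10, Anxa1, was at least 2-fold lower at 28 days, by −1.17 (−1.64 to −0.74), where 1.03% of genes were. S100a8 and S100a9, 2 of 10, were at least 2-fold higher there, by 1.62 (0.97 to 2.31) and 2.78 (2.18 to 3.45), where 1.52% of genes were. The Anxa1 and S100a8 calls rested on the border: without border bins Anxa1 was at −0.80 (−1.71 to −0.02), from 17 against 55 UMIs, and S100a8 at 0.52 (−0.36 to 1.38), from 22 against 28. S100a9 was then at 1.85 (1.11 to 2.66) and S100a4 at −1.06 (−1.25 to −0.88). Without the largest patch wholly on the opposite side in each section S100a8 was at 1.12 (0.34 to 1.92), and without that of the 28-day section alone at 0.88. A 3-day patch across the split, with 8 UMIs of S100a8 and 5 of S100a9, was kept.

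Inside the injured side the genes were read in a lesion zone. It was drawn from 6 genes of phagocytes and their lysosomes (Cd52, Cd68, Ctsz, Laptm5, Lgals3 and Lyz2), as joined 64 µm tiles whose share of these genes exceeded 99% of opposite-side tiles. It held 8506 bins at 3 days and 13559 at 28 days. Its bins were shallower, with 607 UMIs on average against 1030 on the opposite side at 3 days and 527.9 against 839.1 at 28 days. None of the 10 members was used to draw it. All 10 were at least 2-fold higher in the zone than on the opposite side at both times, where 21.8% of 15391 genes were at 3 days and 17.4% of 14846 genes at 28 days. Their median log2 ratio was 3.86 at 3 days, against 0.15 for all genes, and 3.39 at 28 days, against −0.01. The call of S100a9 at 28 days rested on 1 patch described below, which held 306 of its UMIs: in the remaining zone S100a9 had 2.40 CPM against 2.35 CPM on the opposite side, a log2 ratio of 0.07 (−0.86 to 0.82). S100a8 had 3.20 against 1.20 CPM there, 1.44 (0.60 to 2.18). Without the patch 9 of 10 members were at least 2-fold higher in the 28-day zone, with a median of 2.75. The share of all genes is not at hand in that setting.

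S100a4 reached 454.8 CPM in the zone at 3 days and 249.1 CPM at 28 days. These are 29.4-fold and 29.7-fold above the opposite side, log2 ratios of 4.88 and 4.89. Against the zone reflected across the split the ratios of S100a4 were 2.81 and 4.54, and per bin 4.11 and 4.23. The median over the 10 members at 3 days was 2.80 against the reflected zone and 3.09 per bin, and at 28 days 2.72 per bin. Per bin, Anxa5 at 3 days and S100a10 at 28 days were below 2-fold, so these calls depend on the scale. S100a6 reached 506.3 and 272.2 CPM, S100a11 349.4 and 104.2 CPM, and Anxa2 223.9 and 81.3 CPM. S100a10 went from 495.3 to 218.1 CPM. Thus these 5 had lower zone levels at 28 days. Anxa3 went the other way, from 223.9 to 272.4 CPM, as did Anxa5, from 316.5 to 360.3 CPM. S100a9 had 31.2 and 44.85 CPM and S100a8 20.1 and 19.7 CPM, but without the largest patch of each section the zone levels were 22.9 and 2.40 CPM for S100a9 and 16.7 and 3.20 CPM for S100a8. Anxa1 had 16.3 and 12.99 CPM.

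Around the zone the sections differed. At 3 days S100a4 declined over the first bands. It had 169.6 CPM within 250 µm of the zone and 52.5 CPM at 250 to 500 µm, log2 ratios of 3.45 and 1.76 over the opposite side. At 28 days the same bands had 14.3 and 7.76 CPM, 0.78 and −0.10. S100a6 declined as well, with 2.86 and 1.40 at 3 days and 0.96 and 0.41 at 28 days. S100a11 and Anxa2 had 2.58 and 2.07 in the first band at 3 days and 0.48 and 0.55 at 28 days. The decline did not go on in every gene. At 3 days S100a11 had 19.7 CPM at 500 to 1000 µm and 31.0 CPM farther out, Anxa3 37.5 and 48.7 CPM, and Anxa1 1.60 and 4.69 CPM, while S100a9 had 3 UMIs in the first band and 6 in the next. The zone held 60.5% of the S100a4 UMIs of the injured side at 3 days and 87.9% at 28 days, while it held 13.7% and 19.3% of all UMIs of that side. For S100a10 the share was 41.3% and 35.9%, so most of its UMIs lay outside the zone. Anxa5 went from 27.1% to 51.65% and Anxa3 from 40.1% to 65.8%.

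**Figure D2:**
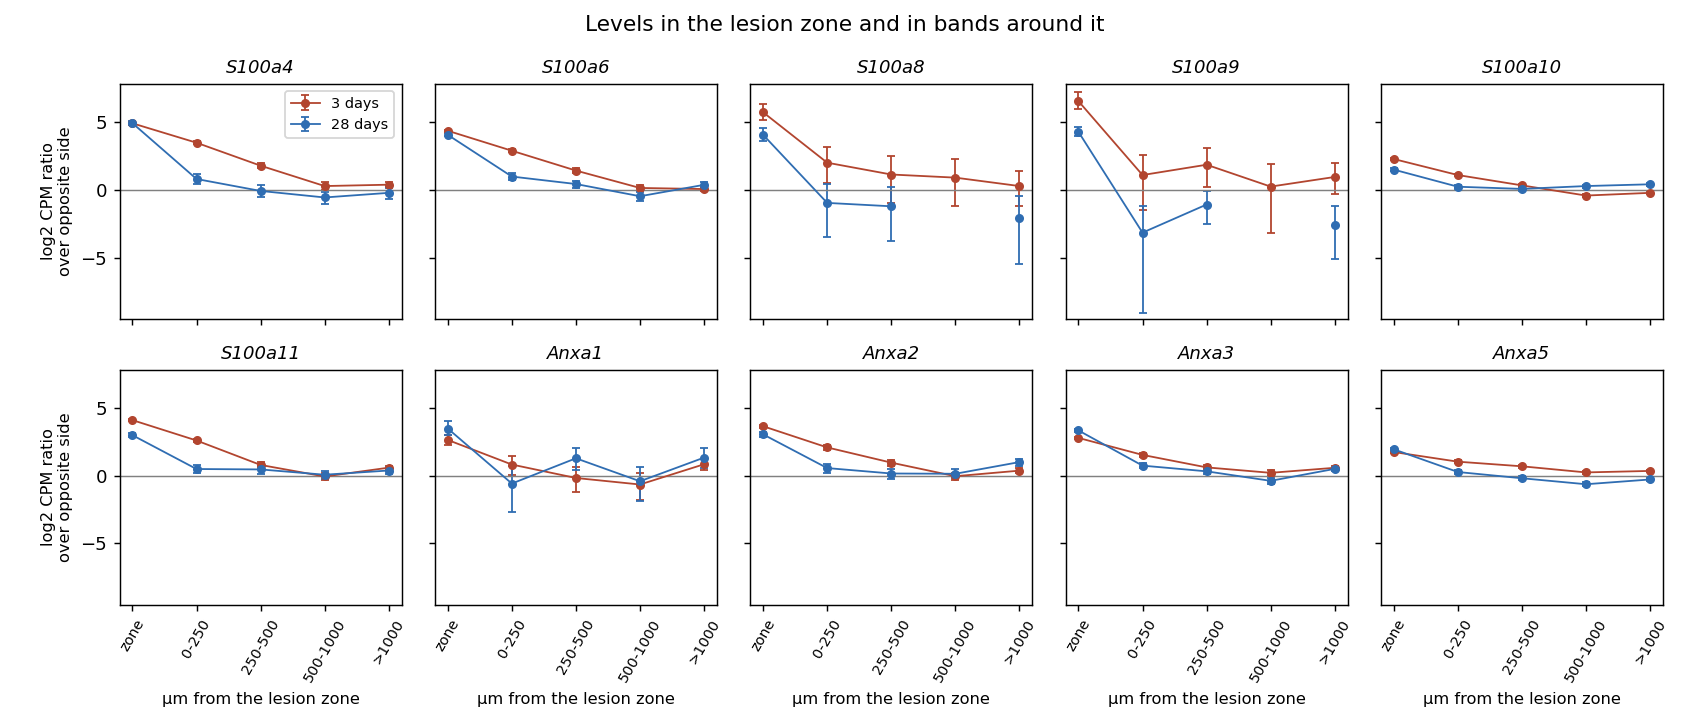
Log2 ratio of CPM over the opposite side (vertical axis) in the lesion zone and in 4 bands of distance from it in µm (horizontal axis), 1 panel per gene, at 3 days (red) and 28 days (blue) with 95% counting intervals; bands with 0 UMIs are left out. S100a4 declines over the first bands at 3 days, 4.88, 3.45 and 1.76, and drops from 4.89 to 0.78 at 28 days.

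The maps place the genes in different parts of the section. At 3 days tiles with S100a4 formed a band from the outer border of the lesion zone towards the split. Injured-side S100a4 was highest 1.5 to 2 mm from the split, at 233.7 CPM, and had 35.75 CPM within 0.5 mm of it. S100a4 was also high in a loop within 2 mm of the split on the opposite side. By distance from the split, S100a4 on the opposite side had 27.8 CPM within 0.5 mm, 35.5 CPM at 0.5 to 1 mm and 6.34 CPM at 2 to 3 mm at 3 days. At 28 days the first of these was 6.77 CPM and the next 6.50 CPM. Gfap, the intermediate filament of astrocytes, had 577.9 and 528.4 CPM in the first 2 strips at 3 days and 167.6 and 170.9 CPM at 28 days, so Gfap and S100a4 were both higher there at 3 days. S100a6 had 41.4 and 31.35 CPM in these strips at 3 days and 14.65 and 12.2 CPM at 28 days.

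**Figure D3:**
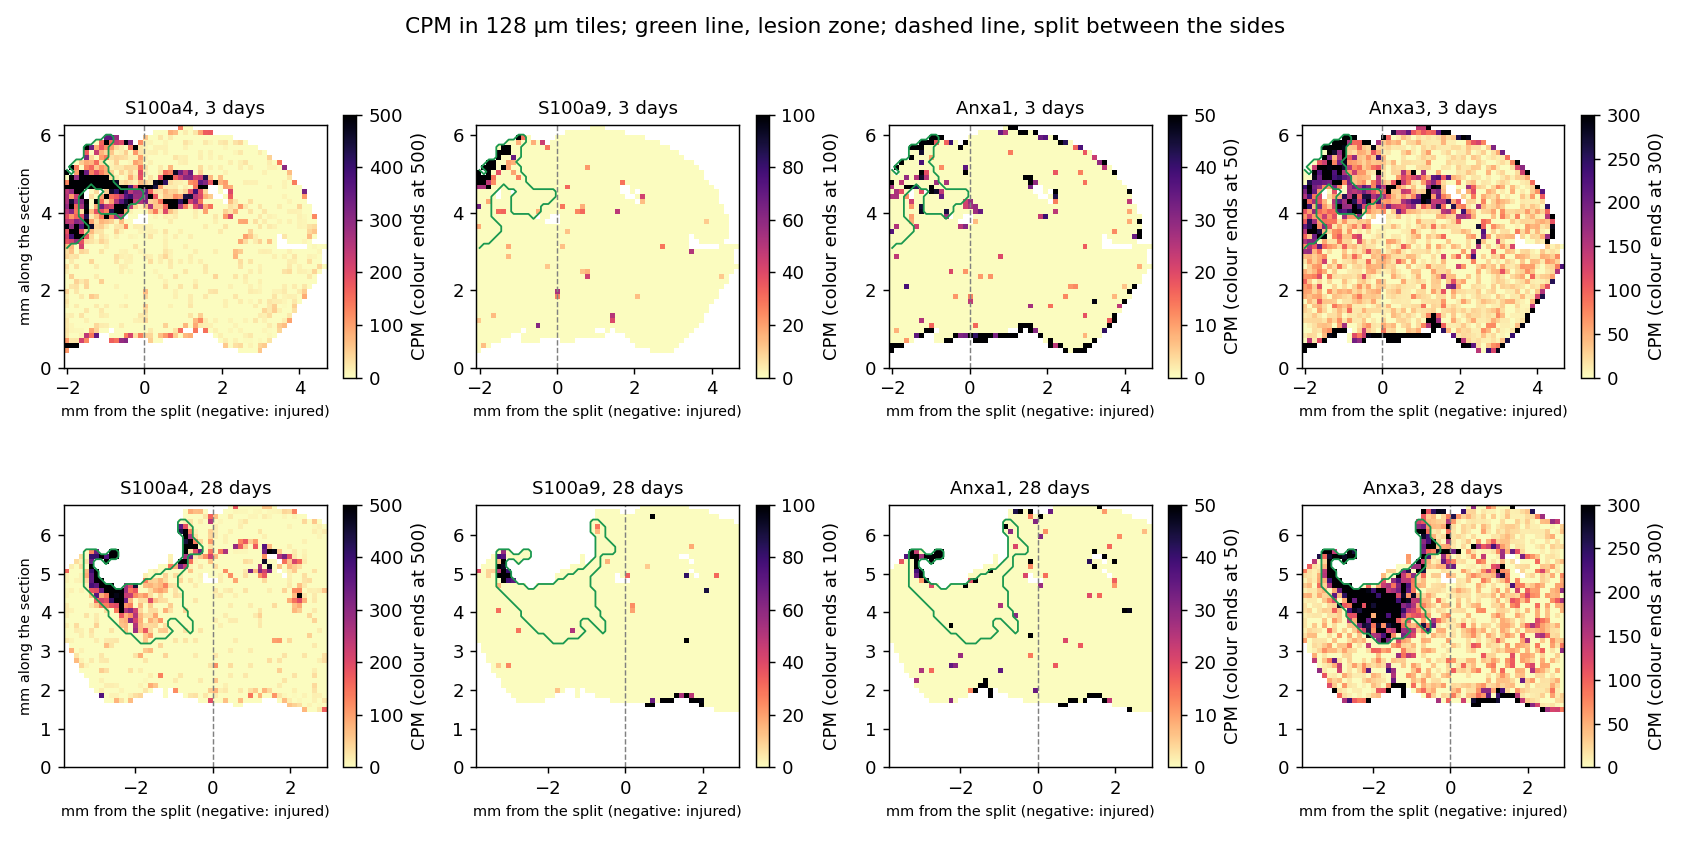
CPM of S100a4, S100a9, Anxa1 and Anxa3 in 128 µm tiles of the 3-day (top) and 28-day (bottom) section; the horizontal axis is the distance in mm from the split, negative on the injured side, the vertical axis the position in mm along the section, the green line the lesion zone, and each colour scale ends at the value given. Anxa1 follows the tissue border, Anxa3 fills the 28-day zone, and S100a9 is held in few tiles.

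The border of the tissue was a second place of high levels. Bins within 64 µm of an outer edge or ventricle held 4.21% of all UMIs of the opposite side at 3 days, and 75.0% of its Anxa1 UMIs. Anxa1 had 47.3 CPM there against 0.693 CPM deeper in the tissue, a log2 ratio of 6.08 (5.64 to 6.56). Anxa2 had a ratio of 4.30, S100a11 3.67, Anxa3 3.09 and Anxa5 2.05. S100a4, S100a6 and S100a10 had 1.47, 1.90 and 1.53. At 28 days Anxa1 had 22.4 against 0.383 CPM and Anxa2 124.6 against 5.82 CPM. S100a4 then had a ratio of 2.86 (2.47 to 3.21), above Anxa3 at 2.47 and Anxa5 at 1.59, and S100a6 had 2.06 and S100a10 0.93. Without border bins the median side ratio of the 10 members was 2.20 at 3 days and 1.73 at 28 days, so the difference between the sides was as large in the deeper tissue.

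To see which cells the genes lay with, bins with at least 2 UMIs of a marker list were compared with all other bins of the injured side. The lists hold textbook markers, and such a bin may also hold other cells. A deep bin reaches 2 UMIs more easily than a shallow one, so ratios are also given with every bin thinned to 300 UMIs, shallower bins left out, where that moved them by over 1.5 times. Reactive astrocyte bins (Gfap, Serpina3n, Osmr, Cd44, Lcn2, Steap4) made up 31.6% of bins at 3 days and 23.1% at 28 days. S100a4 had 288.7 CPM in them against 27.9 CPM in the rest at 3 days, and 228.3 against 11.95 CPM at 28 days. They held 80.8% and 82.45% of its UMIs. The log2 ratios were 3.37 and 4.25, and in thinned bins 2.79 and 3.20, with 58.1% and 62.5% of its UMIs. S100a6 had log2 ratios of 2.80 (2.71 to 2.90) and 3.48 (3.35 to 3.60) there. The same bins on the opposite side gave S100a4 a ratio of 3.69 at 3 days and 3.28 at 28 days, so S100a4 lay with these markers also outside the lesion. Phagocyte bins (C1qa, C1qb, C1qc, Tyrobp, Fcer1g, Ctss, Trem2, Csf1r) gave S100a4 1.27 at 3 days and 3.51 at 28 days, the latter 2.34 when thinned. In bins of monocyte-derived macrophage markers (Ccr2, Ms4a7, Msr1, Plac8 and others) the S100a4 ratio was 1.81 (1.44 to 2.14) and, in the 28-day section, 3.25 (2.93 to 3.53). These bins held 1.78% and 4.83% of its UMIs. Read the other way, among listed markers with at least 20 UMIs, those most raised in bins with S100a4 at 3 days were the macrophage genes Plac8, at 2.74, F10, at 2.67, and Ccr2, at 2.53. At 28 days they were Lcn2, at 5.13, Steap4, at 4.87, and Ccr2, at 4.09.

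The annexins were also high in bins of fibroblast and phagocyte markers. Anxa1 had 42.0 CPM in fibroblast bins (Dcn, Lum, collagens, Slc6a13, Igf2) against 2.25 CPM in the rest at 3 days, which is 4.22 (3.80 to 4.65) on the log2 scale, and 33.2 against 2.34 CPM at 28 days. On the opposite side its ratio in these bins was 6.08 and 5.65. Anxa2 had ratios of 2.11 and 2.78 in fibroblast bins and 2.70 and 3.26 in bins of monocyte-derived macrophage markers. Anxa3 had 201.1 against 50.0 CPM in phagocyte bins at 3 days and 250.4 against 36.4 CPM at 28 days, 2.01 (1.90 to 2.12) and 2.78 (2.67 to 2.89). In fibroblast bins Anxa3 had 1.73 and 1.75 on the injured side and 3.46 and 2.93 on the opposite side. Outside the lesion, in bins of homeostatic microglia markers such as Tmem119 and P2ry12 on the opposite side, Anxa3 had a ratio of 2.02 (1.77 to 2.26) at 3 days, against 0.03 for Anxa5 and 0.22 for Anxa2 in the same bins. Anxa5 on the opposite side had 558.9 CPM in ependymal bins against 90.0 CPM in the rest at 3 days, and 302.3 against 92.1 CPM at 28 days. Read the other way, among listed markers with at least 20 UMIs, those most raised in bins with Anxa3 at 3 days were Col3a1, at 2.97, and Col1a1, at 2.82. At 28 days, under the same minimum of 20 UMIs, Lcn2 led on the injured side in bins with every member. Its ratios ran from 2.40 for S100a10 to 5.22 for S100a8, with 3.60 to 4.44 for the 4 annexins. Some rarer markers were higher. In bins with S100a9 these were Cxcr2, at 6.28 from 7 UMIs, Retnlg, at 5.44 from 2, and F10, at 5.24 from 4. In bins with S100a8 Cxcr2 was at 5.78 from 4 UMIs. The patch of 511 bins described below held 1944 Lcn2 UMIs against 1246 in the remaining zone. Its bins were deep, with 1771 UMIs on average, and these ratios were not recomputed in thinned bins. A bin can carry markers of several lists, so the ratios of different lists are not independent.

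**Figure D4:**
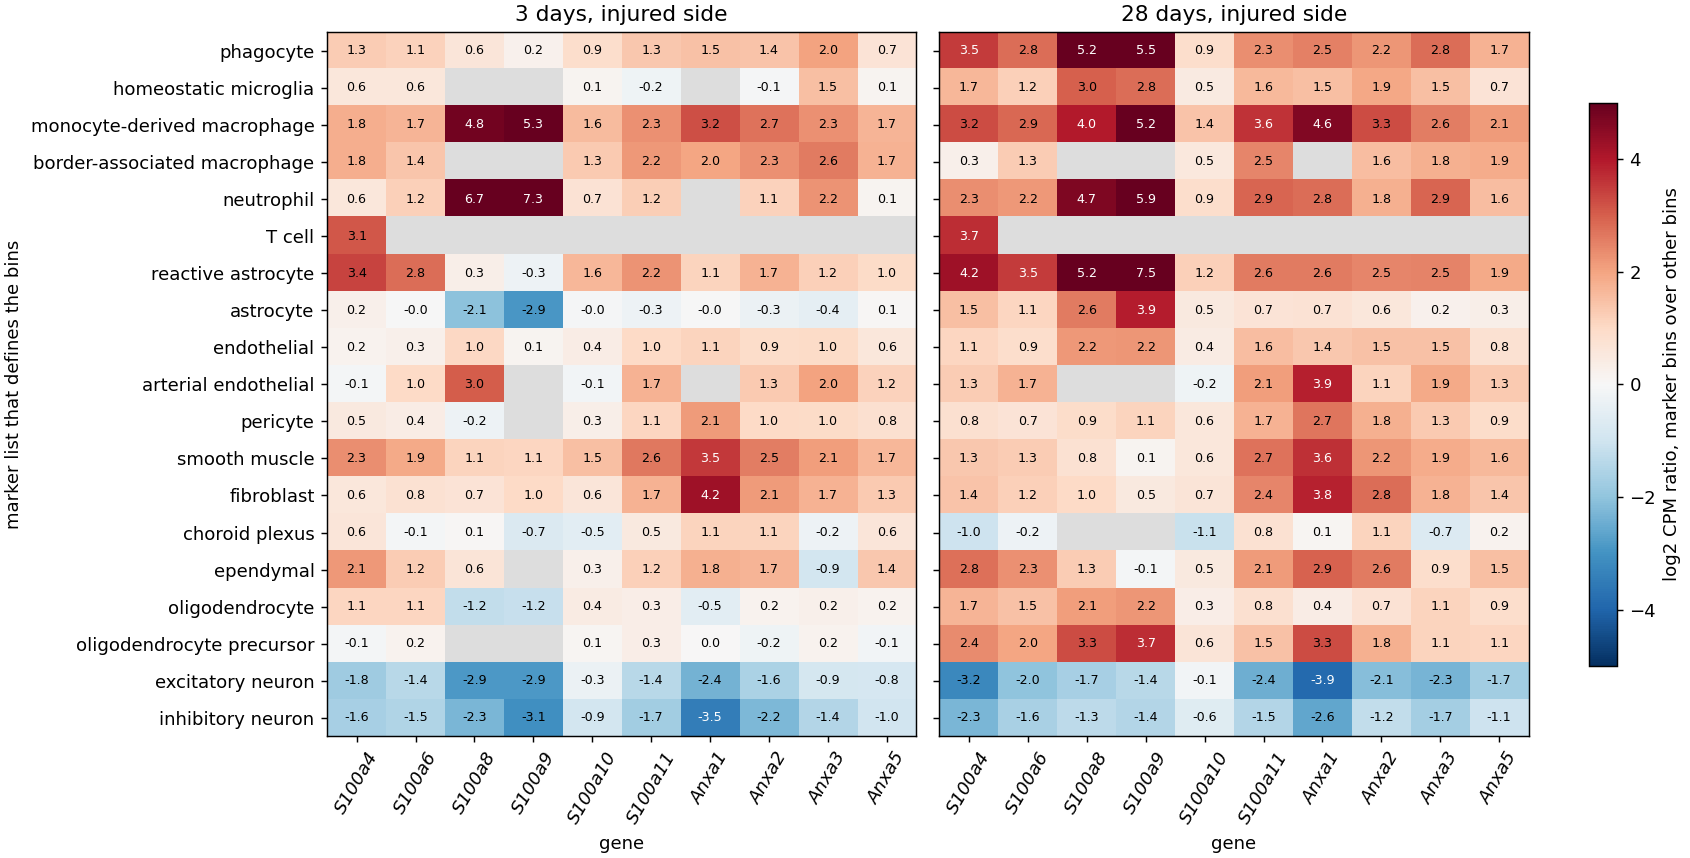
Log2 ratio of CPM, bins of a marker list (rows) over all other bins of the injured side, for each gene (columns) at 3 days (left) and 28 days (right); colour ends at 5 in either direction, and grey cells had under 3 UMIs in the marker bins. S100a9 is at 7.28 and 5.93 in neutrophil bins. Its −0.26 and 7.46 in reactive astrocyte bins are 1.34 and 3.79 in bins thinned to 300 UMIs, shallower bins left out. At 28 days 1 patch held 306 of its 332 injured-side UMIs.

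S100a8 and S100a9 were high in bins of neutrophil markers in both sections. Depth ran in opposite ways: bins with S100a9 on the injured side had 518.2 UMIs on average against 961.8 in the rest at 3 days, and 1807 against 746.9 at 28 days. At 3 days S100a9 had 633.2 CPM in 41 bins of neutrophil markers against 4.13 CPM in the rest, a log2 ratio of 7.28 (6.61 to 7.86), and 5.32 in bins of monocyte-derived macrophage markers. In phagocyte bins it had 0.21 (−0.38 to 0.73) and in reactive astrocyte bins −0.26 (−0.78 to 0.23), both intervals including 0. In thinned bins these were 1.65 (0.27 to 2.73) and 1.34 (0.27 to 2.29), from 8 and 14 UMIs. Thinning also leaves out bins under 300 UMIs, and leaving them out without thinning gave 1.14 (0.47 to 1.76) and 1.03 (0.42 to 1.62). The CPM of single markers in bins with S100a9 at 3 days differed within the lists. Of the 8 phagocyte markers 4 had an interval above 0, among them Tyrobp at 1.87 (1.23 to 2.40), while C1qb, at 0.61 (−0.25 to 1.26), and Csf1r, at 0.53 (−0.68 to 1.38), did not. Of the 6 reactive astrocyte markers 3 had, among them Gfap at 0.66 (0.40 to 0.90), while Serpina3n was at 0.32 (−0.32 to 0.84) and Osmr had 0 UMIs in these bins. Among listed markers with at least 20 UMIs in these bins the highest were the collagen genes Col3a1, at 4.25, Col1a1, at 3.81, and Col1a2, at 3.51. Rarer markers were higher: the granule genes Camp, at 10.68 (7.76 to 16.72), and Ngp, at 9.46 (6.95 to 12.28), from 4 UMIs each, Cxcr2, at 7.33 from 2 UMIs, Chil3, at 5.37 from 4, and the macrophage gene Arg1, at 4.50 (3.72 to 5.13) from 19. At 28 days S100a9 had 44.4 CPM in reactive astrocyte bins against 0.235 CPM in the rest, 7.46 (6.50 to 8.89), and 5.45 in phagocyte bins. Those bins held 97.9% and 91.9% of its injured-side UMIs. In thinned bins the ratios were 3.79 (3.04 to 4.64) and 2.75 (2.04 to 3.47), and the shares 71.8% and 52.1%. Unthinned, in bins of at least 300 UMIs, the ratios were 7.50 and 5.45. The patch of 511 bins described below held 306 of the 332 injured-side UMIs of S100a9. Its part in these ratios was not tested. In the remaining zone S100a9 had 2.40 CPM against 2.35 CPM on the opposite side, while Gfap had 5222 CPM there and 5836 CPM in the patch. In neutrophil bins S100a9 still had 5.93 (5.55 to 6.29) at 28 days. S100a8 followed, with 6.71 and 4.68 in neutrophil bins and 0.31 (−0.27 to 0.85) and 5.25 in reactive astrocyte bins, the last 3.71 when thinned. Whether these differences between the sections exceed the spread between animals was not tested.

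The neutrophil list rests mostly on Csf3r, the receptor for granulocyte colony-stimulating factor, which microglia also express: it gave 82.4% of the list's UMIs on the injured side at 3 days and 91.2% at 28 days. Ly6g, a defining neutrophil gene, had 4 UMIs on the injured side at 3 days and 7 at 28 days, and 0 of them in bins with S100a9. Without Csf3r, the other 10 list genes had 144.3 CPM in the 212 injured-side bins with S100a8 or S100a9 at 3 days, against 2.96 CPM in the other bins, a log2 ratio of 5.64 (4.80 to 6.33). At 28 days the values were 62.2 and 3.35 CPM, 4.24 (3.52 to 4.86). These rest on 18 and 24 UMIs.

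The UMIs of both genes were concentrated in patches, drawn as neighbouring 64 µm tiles with at least 3 UMIs of S100a8 and S100a9 together. Patches are ranked by these UMIs and not by area. The levels of these 2 genes in the patches are a description, since they chose them. At 3 days the largest patch lay inside the lesion zone, 78 bins with 18 UMIs of S100a8 and 43 of S100a9, 16.6% of both in the section. The granule genes Ngp, with 4 UMIs, and Camp, with 3, lay in it, and the neutrophil list without Csf3r had 632.3 CPM against 8.36 CPM in the remaining zone. Gfap had 287.4 CPM there against 3500 CPM in the remaining zone. Anxa2 had 747.3 against 222.1 CPM, log2 1.80 (0.84 to 2.53), while S100a4 and S100a6 had intervals that include 0. The endothelial list had 1552 against 451.3 CPM in this patch, 1.81 (1.18 to 2.33), and the fibroblast list −1.53 (−4.03 to −0.21). Their part in the Anxa2 value was not tested. Bins of this patch were shallow, with 223 UMIs on average, and the part of depth in these values was not tested. The next patch at 3 days had nearly as many UMIs of both genes, covered more bins and held other genes. Its 127 bins, also inside the zone, held 22 UMIs of S100a8 and 32 of S100a9, 14.7% of both. Ngp, Camp and Ltf had 0 UMIs in it, which at the floor of 3 UMIs allows up to 70.55 CPM each, and Csf3r had 8. The neutrophil list without Csf3r had 47.0 CPM, Gfap 1975 CPM from 84 UMIs and Arg1 1058 CPM from 45 UMIs. In the patch after that, of 14 UMIs of both genes, Gfap had 288 UMIs. The granule genes and the low Gfap of the largest patch were thus not shared by all patches at 3 days.

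At 28 days 1 patch of 511 bins, 3.77% of the bins of the zone, held 121 UMIs of S100a8 and 306 of S100a9, 66.6% of both in the section. It lay 3.14 mm from the split, at the outer rim of the lesion, and its bins were deep, with 1771 UMIs on average. Ngp, Camp and Ltf had 0 UMIs in its 905234 UMIs, which at the floor of 3 UMIs allows up to 3.31 CPM each. Lcn2, an iron-binding protein of reactive astrocytes and of neutrophil granules, had 2148 CPM against 199.3 CPM in the remaining zone, and Steap4, a metalloreductase, 330.3 against 29.4 CPM. The study treats Lcn2 as specific to endothelium, raised by stress, and as a marker of veins. The endothelial list had 296.1 CPM in the patch against 342.1 CPM in the remaining zone. Which cells held the Lcn2 was not tested. Ccr2, a chemokine receptor of monocytes, had 35.35 against 5.44 CPM. Gfap, at 5836 against 5222 CPM, and the phagocyte list, at 8307 against 6530 CPM, differed less, by 0.16 and 0.35 on the log2 scale. The neutrophil list without Csf3r had 34.25 against 3.20 CPM, from Mmp9 with 14 UMIs, Cxcr2 with 12 and Retnlg with 4 for the most part. Of the other members Anxa1 was highest relative to the remaining zone, at 44.2 against 8.48 CPM, log2 2.39 (1.75 to 3.00), followed by S100a11 with 239.7 against 84.6 CPM and Anxa2 with 154.7 against 70.7 CPM. S100a10 and Anxa5 were at 0.26 and 0.17 on the log2 scale.

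A different patch was found on the opposite side at 28 days, 106 bins along the lower border of the section with 22 UMIs of S100a8 and 49 of S100a9. Here Ngp had 11 UMIs, Ltf 8 and Camp 3, and Lcn2 65.5 CPM. The meningeal gene Igf2 had 3823 CPM and Col1a2 589.1 CPM in it. Steap4 had 0 UMIs, which at the same floor allows up to 39.3 CPM. Border bins, with 3.61% of all UMIs there, held 59.3% of the S100a8 and 56.6% of the S100a9 UMIs of the opposite side at 28 days. Without border bins on both sides the 28-day side ratios were 2.88 for S100a8 and 3.08 for S100a9. These ratios keep most of the injured-side patch of 511 bins, which lay a median of 128 µm from an edge.

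**Figure D5:**
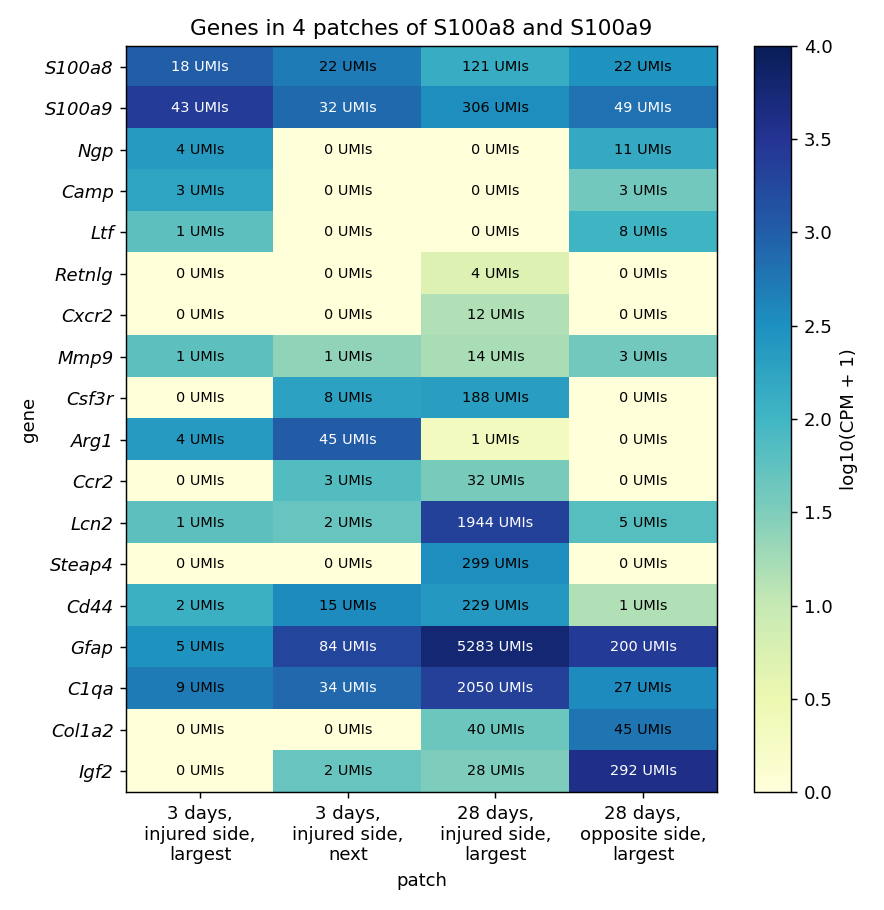
UMIs (numbers) and log10(CPM + 1) (colour) of 18 genes (rows) in 4 patches of S100a8 and S100a9 (columns), for the 3-day injured side the largest and the next. Ngp has 4 and 11 UMIs in the largest 3-day patch and the 28-day opposite-side patch and 0 in the next 3-day patch and in the 28-day injured-side patch, where Lcn2 has 1944.

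Pairs of members were compared in bins thinned to 300 UMIs, which left out 4297 of the injured-side bins at 3 days and 9853 at 28 days as too shallow. Among bins with S100a4 at 3 days, 17.95% (15.85 to 20.2) also held S100a6, against 3.945% of the other bins, and at 28 days 15.0% against 1.97%. Of bins with Anxa2, 15.2% held its partner S100a10 at 3 days against 5.33% of the others, and 7.84% against 3.36% at 28 days. Unthinned, the shares were 31.2% against 12.1% and 21.4% against 7.32%. Of 59 bins with Anxa1 at 3 days 8 held S100a11, a share of 13.6% (6.04 to 24.98) against 2.98% of the others. Of 36 bins with S100a8 4 held S100a9, 11.1% (3.11 to 26.1) against 0.0978%. These shares are given with exact binomial intervals.

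Across 128 µm tiles of the whole section, the correlation of S100a4 with S100a6 was 0.77 at 3 days (n = 1756 tiles) and 0.60 at 28 days (n = 1455), and that of S100a11 with Anxa2 0.77 and 0.48. S100a8 and S100a9 correlated at 0.57 and 0.79. S100a10 and Anxa2, the classical complex, correlated at 0.55 at 3 days and 0.26 at 28 days. The values rose with tile size. In 64 µm and 256 µm tiles S100a4 with S100a6 had 0.61 and 0.89 at 3 days and 0.44 and 0.79 at 28 days, S100a11 with Anxa2 0.61 and 0.88, then 0.32 and 0.68. S100a8 with S100a9 went from 0.42 to 0.79 and from 0.70 to 0.88, and S100a10 with Anxa2 from 0.40 to 0.66 and from 0.18 to 0.29. Neighbouring tiles share tissue and depth, so these values are descriptions.

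The genes outside the list most like each member were ranked across the same 128 µm tiles. At 3 days Vim, the intermediate filament of reactive astrocytes and of mesenchymal cells, was the nearest gene to 6 of the 7 members with enough UMIs: it correlated with S100a11 at 0.83, S100a6 at 0.81, S100a4 at 0.78, Anxa2 at 0.77, Anxa3 at 0.65 and S100a10 at 0.60. Anxa5 was most like Ddr1, at 0.61. At 28 days the nearest gene to S100a4 and S100a6 was the complement gene C3, at 0.67 for both, close to Vim at 0.63 and 0.66. Vim was nearest to S100a11, at 0.60, and to Anxa2, at 0.58. Anxa3 and Anxa5 were most like Apoe, at 0.66 and 0.62, followed for Anxa3 by Lyz2 at 0.64 and Spp1 at 0.63. S100a10 had no close neighbour at 28 days, with 0.37 for Gfap.

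Other genes of the families had lower median ratios between the sides than the members, though single genes were above some members. The members and these lists were chosen with earlier results of these data known, so the contrast is a description only. Against backgrounds of 10.5% and 6.43% of all genes at 3 and 28 days, 2 of 7 other S100 genes with enough UMIs were at least 2-fold higher on the injured side at 3 days, S100a16 at 1.07 and S100a13 at 1.02, and their median was 0.66. At 28 days 1 of 7 was, S100a3 at 1.27, while S100a13 and S100a16 had 0.55 and 0.29. S100b, the best-known S100 protein of astrocytes, had 203.7 against 176.8 CPM at 3 days and 286.1 against 231.6 CPM at 28 days, ratios of 0.20 and 0.31. Of 7 other annexins 1 passed, Anxa4, at 1.25 and 1.57, and their medians were 0.02 and 0.11. Of 12 partners and receptors 1 passed at 3 days, a share near the background, and 3 at 28 days. Tlr4, a receptor for calprotectin, was at 1.42 and 1.60. Ahnak, a large scaffold bound by S100A10 and ANXA2, was at 0.91 and 1.02, and Ager, another S100 receptor, at 0.63 and 1.12. None of these genes was 2-fold lower on the injured side in either section. In the lesion zone, where 21.8% and 17.4% of all genes passed, more of them did: 6 of 7 other S100 genes at 3 days and 7 of 7 at 28 days, with medians of 2.34 and 1.64. S100b had a zone ratio of 0.22 at 3 days and 1.48 at 28 days, and Anxa4 2.77 and 3.39. Of the other annexins with enough UMIs 2 of 7 and 3 of 6 passed, and of the partners and receptors 6 of 11 at both times.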

How the data were processed

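Formalin-fixed, paraffin-embedded sections of 10 µm were run on Visium HD with the mouse probe set v2.0. Per the file headers and the submitters' processing notes, the authors made the UMI counts with Space Ranger 4.0.1 on mm10. The deposited values are raw counts per gene and 16 µm bin. A probe reads 1 short stretch of a transcript, so levels are compared within a gene.

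The members and lists were chosen with earlier results of these data known. Counts were summed over sides, the lesion zone, distance bands, marker bins and tiles with Python 3.11.15 and SciPy 1.17.1. Log2 ratios used a pseudocount of 0.5 UMI, and genes with at least 20 UMIs over both areas. Intervals are exact conditional binomial for ratios and Clopper-Pearson for shares. Bins under 100 UMIs were left out, 1.93% and 2.15%. Tile correlations used log2(CPM + 10) in tiles of 8 by 8 bins with at least 20000 UMIs, and named the 3 genes nearest to each member with at least 500 UMIs. Known side ratios were recovered from simulated counts. These were drawn independently under the counting model of the intervals, so they check the calculation only and not the effect of UMIs clumped in patches. TMM factors came from edgeR 4.0.16. Other S100, annexin and partner genes were named at a log2 ratio of at least 1 or at most −1 in either section, and S100b after its values were seen, as were the marker genes printed for the patches. Gene positions and promoters are from RefSeq, GRCm38.p6. Anxa13, Ly6c2, Ly6c1, Stfa2l1 and Ssu2 were not analysed here. Replicate sections were not at hand, so no p-values were computed.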

Additional observations from a re-analysis of the deposited data

Results flagged for a closer look

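The side ratios of 2 partner genes had counting intervals on opposite sides of 0 in the sections. Cacybp, the calcyclin-binding protein, had a log2 ratio of injured over opposite side of 0.11 at 3 days and −0.08 at 28 days. S100pbp, an S100P-binding protein, had 0.13 and −0.16. All are small against the 2-fold threshold, and the difference between the sections was not tested.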

How the results depend on the processing

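Of 1169 values recomputed under other settings, 629 stayed within the counting interval of the reported value or, for counts, within 1.5 times it, 535 moved beyond that, and 5 turned from an interval on one side of 0 to a value on the other. The median side ratio of the members at 3 days was 1.77 with UMIs per bin, 1.72 with TMM scaling, 1.44 with equal width on either side of the split and 2.20 without border bins. At 28 days it was 1.28 with equal width and 1.18 without the largest patch of S100a8 and S100a9. The count of members called higher on the injured side lay between 7 and 10 at 3 days and 6 and 8 at 28 days. The count of 10 was reached at a threshold of 1.5-fold, which S100a10 and Anxa5 also passed at 3 days. The share of all genes is not at hand at that threshold or in the other settings of this count. The zone median at 3 days was 3.57 with a zone cut at the 95th percentile, 4.01 with smoothing over 3 by 3 tiles, 2.80 against the zone reflected across the split, 3.09 per bin and 4.38 without border bins. At 28 days it was 2.72 per bin and 2.75 without the patch. The side ratios that turned, at 28 days, were S100a8, −0.90 with equal width and −0.62 without the patch, and S100a9, −2.83 and −1.69. Without the largest patches S100a9 also turned over time, to −2.34, though its own UMIs helped to draw these patches. Equal width and the side ratios without the patch leave out the injured-side patch that held most UMIs of S100a8 and S100a9. Both keep the opposite-side patches. Equal width, border bins, choroid plexus bins, the largest tissue piece, the patch, bins of at least 300 UMIs unthinned and the neutrophil list without Csf3r were chosen after seeing the data. No paired analysis was possible because each group had 1 section. Depth limits S100a8, S100a9 and Anxa1 most, which had under 500 UMIs in each section.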
